A study of Mus musculus with 55 samples.

Results

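The 10 genes described here encode the insulator protein CTCF and the core machinery of the cohesin complex: Ctcf, Smc1a, Smc3, Rad21, Stag1, Stag2, Nipbl, Wapl, Pds5a and Pds5b. They were chosen by gene symbol and not by their values, although with earlier results of these data known. All 10 were listed among the 9911 genes of the CCNA-GFP line and among the 10237 genes of the CTCF-AID line. The study followed how transcription restarts after mitosis in mouse E14Tg2a embryonic stem (ES) cells of the 129/Ola strain, and whether the restart needs CTCF. The quantity was the pre-mRNA level, as TPM (transcripts per total transcripts, corrected for transcript length), of ribo-depleted stranded RNA. In CCNA-GFP cells, which carry a reporter of cyclin A, 19 libraries covered untreated asynchronous cells (n = 3), mitotic cells (n = 3), cells at 20, 30, 40, 60, 90 and 120 min after release (n = 2 each) and at 50 min (n = 1). In CTCF-AID cells, in which an auxin-inducible degron allows CTCF protein to be removed, 36 libraries covered asynchronous and mitotic cells (n = 3 each per arm) and 20, 40, 50, 60, 90 and 120 min (n = 2 each per arm), without the auxin IAA (−IAA) or with 0.5 mM IAA (+IAA). Libraries at 20, 40, 60 and 120 min were of replicates 1 and 2, and those at 30 and 90 min of replicates 1 and 3. Those at 50 min were of replicate 3 in CCNA-GFP cells and of replicates 1 and 3 in CTCF-AID cells. Means at such times thus differ in replicates as well as in time. All mitotic and released cells, in both lines and both arms, had been held in 10 µM RO-3306 for 4 h and then in 50 ng/ml nocodazole for 4 h before shake-off, whereas asynchronous cells had not. In synchronized cells IAA was present from 2 h before release and throughout it. The study's methods name 1 CTCF-AID line. Asynchronous +IAA cells were in IAA for 4 h. The methods call the replicates independent without saying whether they were separate thaws or passages, and the p-values measure the spread between these libraries.

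CTCF binds DNA through its zinc fingers and marks boundaries of chromatin domains. Cohesin is a ring of SMC1A, SMC3 and the kleisin RAD21, to which one of the paralogous subunits STAG1 or STAG2 is attached. NIPBL loads the ring and drives the extrusion of DNA loops, WAPL releases it, and PDS5A and PDS5B regulate its residence on DNA. CTCF arrests extruding cohesin. Cohesin is largely removed from chromosome arms in mitosis and returns as loops and domains are rebuilt in G1, while how much CTCF stays bound in mitosis differs between cell types, ES cells being among those that keep it at many sites. IAA acts on tagged CTCF protein, so the Ctcf pre-mRNA is no check of the depletion.

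In the Gencode vM21 annotation (GRCm38), Rad21 lies at chr15:51962240-51991747 and is the shortest at 29.5 kb. Smc3 at chr19:53600398-53645833, Smc1a at chrX:152016428-152062694 and Ctcf at chr8:105636568-105682922 span 45.4, 46.3 and 46.4 kb. Wapl at chr14:34673928-34747983 spans 74.1 kb, Pds5a at chr5:65605721-65698273 spans 92.6 kb, Stag2 at chrX:42149317-42277185 spans 128 kb, Pds5b at chr5:150673739-150810690 spans 137 kb and Nipbl at chr15:8290617-8444463 spans 154 kb. Stag1 at chr9:100597798-100959375 is the longest at 362 kb. Rad21, Nipbl and Pds5a are on the minus strand. Annotated genes lie on the same strand inside Stag1 (3), Pds5a (2) and Pds5b (2), so the pre-mRNA values of these hosts may hold reads of the inner genes.

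RefSeq (GRCm38.p6) gave a promoter window around the start site for 7 of the 10 genes. Rad21, Stag2 and Nipbl had no entry. Sequences are shown for Ctcf and Smc3, because both promoters carry the same letters at the start site, and for Stag1, the member that last passed the test after release. Capitals mark ATGGCGG, the core letters of a YY1 site, read on either strand as ATGGCGG or CCGCCAT. In Stag1, capitals also mark CCAAT, the NF-Y letters, read as ATTGG. The windows are chr8:105636288-105636587 for Ctcf, chr19:53600146-53600445 for Smc3 and chr9:100643198-100643497 for Stag1, all on the plus strand. The RefSeq start of Stag1 lies inside the gene model given above.
Ctcf: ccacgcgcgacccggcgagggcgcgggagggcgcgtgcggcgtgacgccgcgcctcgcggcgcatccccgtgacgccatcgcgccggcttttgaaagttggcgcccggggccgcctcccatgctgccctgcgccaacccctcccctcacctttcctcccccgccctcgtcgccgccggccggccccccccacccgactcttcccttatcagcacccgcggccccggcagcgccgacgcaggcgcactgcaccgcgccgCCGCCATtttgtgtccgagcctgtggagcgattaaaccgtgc
Smc3: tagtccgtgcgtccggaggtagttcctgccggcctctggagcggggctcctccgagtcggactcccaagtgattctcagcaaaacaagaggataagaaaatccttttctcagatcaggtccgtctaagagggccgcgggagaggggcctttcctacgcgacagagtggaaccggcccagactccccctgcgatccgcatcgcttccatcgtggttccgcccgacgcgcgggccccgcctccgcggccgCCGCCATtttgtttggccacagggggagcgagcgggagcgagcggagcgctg
Stag1: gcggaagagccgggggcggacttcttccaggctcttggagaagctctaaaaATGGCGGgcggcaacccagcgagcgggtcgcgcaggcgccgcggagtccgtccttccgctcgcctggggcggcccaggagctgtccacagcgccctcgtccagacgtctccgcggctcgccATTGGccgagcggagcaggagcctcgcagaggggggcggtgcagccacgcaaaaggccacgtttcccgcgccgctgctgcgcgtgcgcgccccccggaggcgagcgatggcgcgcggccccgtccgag

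The YY1 letters began 8 bases past the start base in Ctcf, 2 bases before it in Smc3 and 199 bases before it in Stag1. In Ctcf and Smc3 they sat in a shared run of 16 bases, gccgccgccattttgt. ATGGCGG occurred in 3 of the 7 promoters and in 4.05% of 32851 RefSeq promoters of this length, or 8.56% of the 10763 promoters of genes listed in the tables, as all members are. CCAAT occurred in Smc1a, Stag1, Wapl and Pds5b, against 37.4% of all promoters and 38.4% of those of listed genes, and did not overlap the YY1 letters. The E2F letters TTTNGCGC were found only in Pds5a among the 7 (1.38% of all promoters, 2.53% of those of listed genes). The core letters of the CTCF motif were in 0 of the 7 windows (2.43% and 2.71%). The 7 windows held 58.3% to 80.3% G and C, with a median of 73.7% against 52.7% over all promoters.

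The scale of the values sets how the time course can be read. The summed pre-mRNA TPM over listed genes ran from 13747 to 17245 in mitotic CCNA-GFP cells and from 30992 to 42576 at 60 min, so most genes were higher after release on the deposited scale. The median gene stood 0.79 higher at 60 min than in mitosis on the log2(TPM + 1) scale in CCNA-GFP cells, and 0.63 higher in each arm of CTCF-AID cells. When every library was scaled to the same total, that median was 0.02 in CCNA-GFP cells. The estimates of 7 of the 10 members then turned from positive to negative, 6 of them called lower. Of all genes 33.3% were called lower and 36.4% higher under this scaling. The log2 difference of the median gene is therefore given beside the main contrasts. Read counts were not used here and the depth is unknown. Of 8 ES cell markers 7 were listed in each table, Pou5f1, Nanog and Esrrb among them, with a summed level of 46.1 to 94.4 TPM in asynchronous CCNA-GFP cells, whereas of 4 endoderm markers 0 were listed. In any library the summed level was at most 5.55 TPM for mesoderm markers (2 of 3 listed), 10.8 for neural (2 of 3), 7.45 for trophectoderm (2 of 3 in CCNA-GFP cells, 3 of 3 in CTCF-AID cells) and 3.42 for fibroblasts (0 and 2 of 3). In such bulk samples fewer cells of a type and less RNA per cell cannot be told apart. Of the asynchronous libraries, replicate 3 had the highest level of every member except Stag2 in CCNA-GFP, −IAA and +IAA cells.

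In asynchronous CCNA-GFP cells the members spanned 1.60 to 7.21 TPM, against a median gene of 1.53 TPM. Rad21 led at 7.21 ± 2.33 (SD, n = 3), followed by Ctcf at 5.36 ± 1.58, Pds5a at 5.12 ± 1.25 and Wapl at 4.53 ± 1.35. Smc3 (3.71 ± 0.80), Nipbl (3.02 ± 0.64), Smc1a (2.72 ± 0.83), Stag1 (2.60 ± 0.60) and Pds5b (2.43 ± 0.69) were in between, and Stag2 was lowest at 1.60 ± 0.27. The SDs of neighbours in this order overlapped throughout. In mitotic cells Pds5a (3.51 ± 0.47), Wapl (3.25 ± 0.63), Ctcf (2.99 ± 0.21) and Rad21 (2.86 ± 0.66) were at the top and did not separate, and Stag2 was again lowest at 1.14 ± 0.06. TPM is corrected for length, so levels of different genes can be set side by side, but those of Stag1, Pds5a and Pds5b may hold reads of inner genes.

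**Figure D1:**
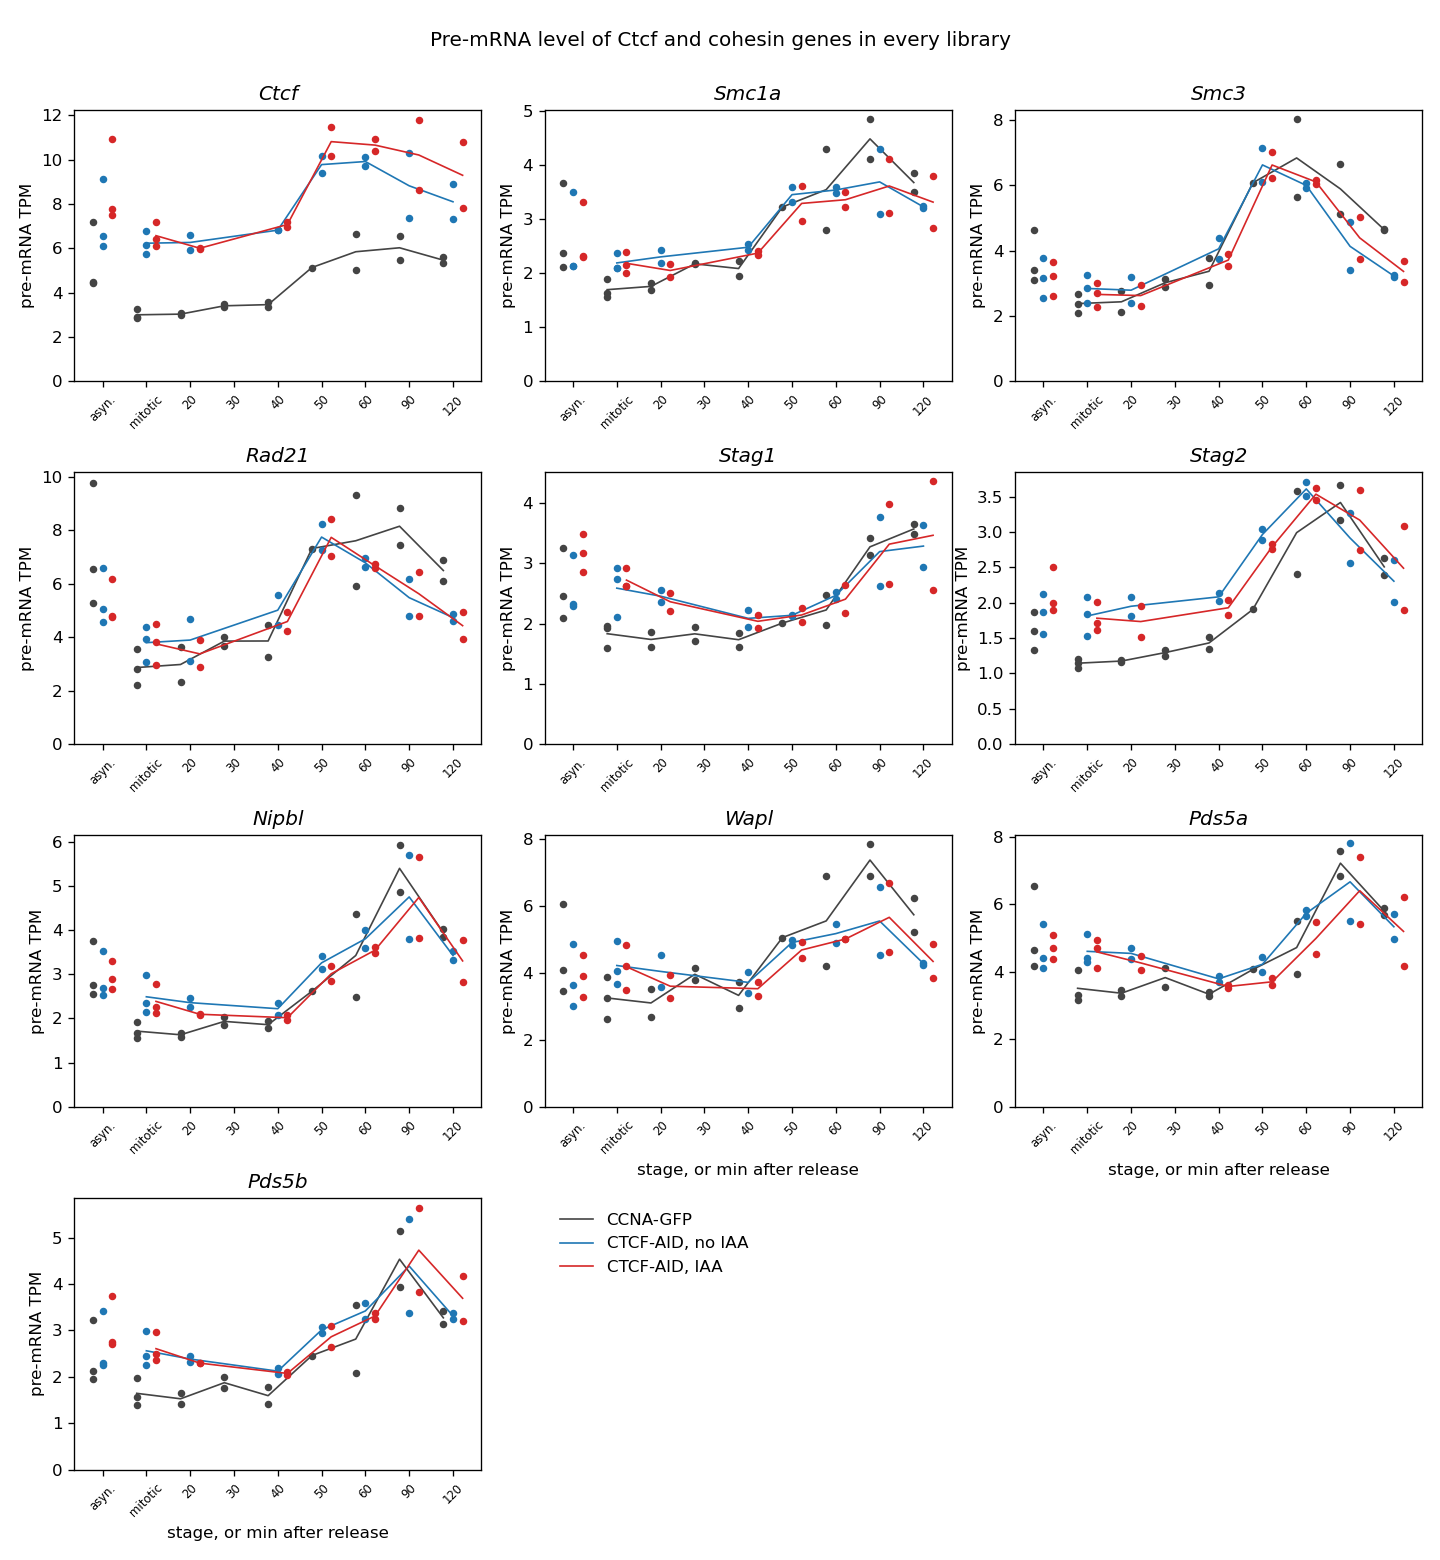
Pre-mRNA level (TPM, linear axis from 0) of each gene against stage or min after release. Each point is 1 library, lines join the means of mitotic and released cells, and colours are CCNA-GFP, CTCF-AID −IAA and CTCF-AID +IAA. The mean of Smc3 was highest at 50 or 60 min in each arm and that of Stag1 at 120 min, but in replicate 1, which has all times of the +IAA arm, Stag1 held 2.65 TPM at 90 and 2.56 at 120 min. In CCNA-GFP cells the means of 1 member were highest at 60 min and of 8 at 90 min. Within replicate 1, which lacks 50 min there, 6 members were highest at 60 min and 3 at 90 min.

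The first question was when each gene came back. Ctcf stood at 2.86, 2.89 and 3.23 TPM in the 3 mitotic CCNA-GFP libraries, at 3.07 and 2.97 at 20 min, at 3.34 and 3.46 at 30 min, and at 3.55 and 3.36 at 40 min. The single 50 min library held 5.13. Those at 60 min held 6.66 and 5.02, those at 90 min 5.48 and 6.56, and those at 120 min 5.32 and 5.60. All libraries from 30 min on were above all mitotic ones, while those at 20 min overlapped them. Ctcf was 0.86 ± 0.13 (log2 difference ± SE) higher at 60 min than in mitosis (limma, Benjamini-Hochberg adjusted p = 5.07e-06). Relative to the median gene it lay between −0.27 and 0.11 over the 9 settings tried, so its place against that gene was not settled. Its difference at 40 min, 0.25 ± 0.13, did not pass (limma adjusted p = 0.129). Ctcf at 60 min did not differ by the test from asynchronous cells (0.22 ± 0.13, adjusted p = 0.15 by limma), whose libraries held 4.47, 4.42 and 7.18 TPM.

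Among the ring subunits, Smc3 and Rad21 were already called at 40 min and had the highest differences of all members at 60 min. Rad21, the kleisin that closes the ring, had 2.82, 2.23 and 3.54 TPM in mitosis, 4.45 and 3.26 at 40 min, and 9.32 and 5.90 at 60 min. Rad21 at 40 min was 0.48 ± 0.13 higher on the log2 scale (limma adjusted p = 0.00441), although its libraries overlapped the mitotic ones. Smc3, one arm of the ring, had 2.37, 2.09 and 2.67 TPM in mitosis, 3.78 and 2.96 at 40 min, 8.03 and 5.66 at 60 min, and 4.66 and 4.63 at 120 min. Smc3 was 0.47 ± 0.12 higher at 40 min (limma adjusted p = 0.0035) with no overlap, and 1.30 ± 0.12 higher at 60 min (adjusted p = 5.3e-09, limma), which was 0.51 above the median gene (0.20 to 0.54 over the settings). Smc1a, the other arm, had 1.64, 1.56 and 1.88 TPM in mitosis and 4.30 and 2.79 at 60 min. Its rise at 60 min was 0.83 ± 0.13 (limma adjusted p = 5.69e-06), and its place against the median gene turned with the setting (−0.18 to 0.13). At 40 min, where the median gene stood 0.26 higher, 2 of the 10 members were thus called higher and 49.3% of all genes were, and 0 were without replicate 1 (26.4% of genes). At 60 min 9 were, where 88.3% of all genes were.

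Stag1 alone did not pass at 60 min. It stood at 1.60, 1.93 and 1.97 TPM in mitosis, 1.61 and 1.85 at 40 min, 2.01 at 50 min, 2.47 and 1.98 at 60 min, 3.14 and 3.42 at 90 min, and 3.49 and 3.66 at 120 min. Its difference at 60 min was 0.24 ± 0.11 (limma adjusted p = 0.0521), 0.55 below the median gene, and a lower log2 difference was found in 13.4% of genes. That difference was 0.10 without replicate 1 (limma adjusted p = 0.614) and 0.43 without replicate 2 (limma adjusted p = 0.0165), and Stag1 also passed with a pseudocount of 0.1 (0.34, limma adjusted p = 0.0445). It stayed 0.50 to 0.95 below the median gene in all 9 settings. By 120 min it had risen by 0.75 ± 0.11 (limma adjusted p = 4.92e-06). Stag2, its paralogue, stood at 1.08, 1.20 and 1.15 TPM in mitosis, 3.58 and 2.40 at 60 min, 3.17 and 3.66 at 90 min, and 2.39 and 2.63 at 120 min. It was 0.89 ± 0.12 higher at 60 min than in mitosis (limma adjusted p = 9.31e-07), with a place against the median gene that also turned (−0.08 to 0.22).

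The ratio of Stag2 to Stag1 within a library does not depend on how libraries are scaled. In CCNA-GFP cells it was 0.674, 0.621 and 0.586 in mitosis, 0.940 and 0.725 at 40 min, 0.947 at 50 min, 1.45 and 1.21 at 60 min, 1.01 and 1.07 at 90 min, and 0.684 and 0.718 at 120 min. The pre-mRNA TPM of Stag2 thus exceeded that of Stag1 at 60 and 90 min only, and at 120 min the ratio was near its mitotic level. Stag2 spans 128 kb and Stag1 362 kb, and Stag1 values may hold reads of inner genes. Whether length bears on the ratio was not tested. In asynchronous cells the ratio was 0.639, 0.757 and 0.491, on both sides of the mitotic range. In CTCF-AID cells the ratio was above 1 in all libraries at 50 and 60 min and on both sides of 1 at 40 min −IAA (0.956 and 1.04) and at 90 min +IAA (0.901 and 1.03). The mean ratio −IAA was 0.703 ± 0.067 (SD, n = 3) in mitosis, 1.39 ± 0.05 (n = 2) at 50 min, 1.46 ± 0.11 (n = 2) at 60 min, 0.921 ± 0.076 (n = 2) at 90 min and 0.699 ± 0.023 (n = 2) at 120 min. The mean ratio +IAA was 0.656 ± 0.097, 1.31 ± 0.13, 1.48 ± 0.15, 0.968 ± 0.094 and 0.722 ± 0.024 at these stages. In each arm the 60 min libraries did not overlap the mitotic, asynchronous or 120 min ones, and the arms overlapped each other at 60 min.

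**Figure D2:**
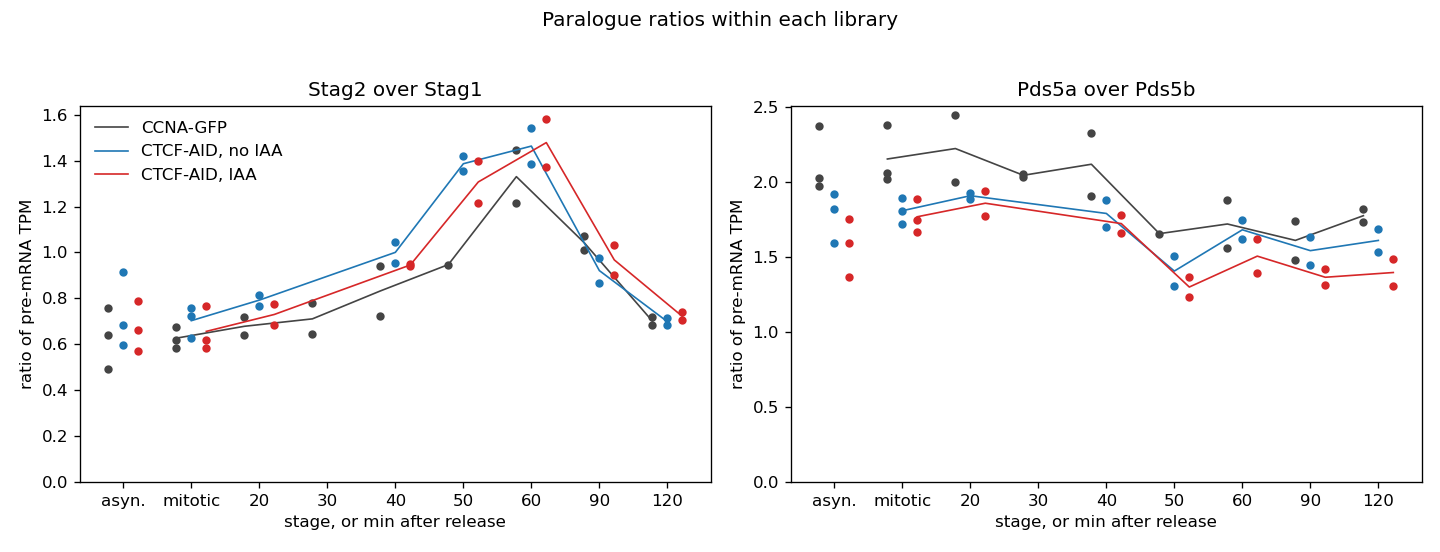
Ratio of pre-mRNA TPM within each library (axes from 0) for Stag2 over Stag1 and for Pds5a over Pds5b, by stage or min after release. Points are libraries and lines join means. Stag2 over Stag1 peaked at 60 min in all 3 arms, between 1.33 and 1.48, from 0.627 to 0.703 in mitosis.

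Nipbl, which loads cohesin, had the highest difference from mitosis of all members at 90 min. It stood at 1.57, 1.66 and 1.91 TPM in mitosis, 1.94 and 1.78 at 40 min, 4.38 and 2.47 at 60 min, 4.87 and 5.93 at 90 min, and 4.04 and 3.85 at 120 min. At 90 min it was 1.16 ± 0.13 higher than in mitosis on the log2 scale (limma adjusted p = 1.18e-07), 0.43 above the median gene (0.22 to 0.47 over the settings). The release factor Wapl stood at 3.24, 2.62 and 3.88 TPM in mitosis, 6.89 and 4.21 at 60 min and 6.89 and 7.84 at 90 min, a rise at 60 min of 0.73 ± 0.12 (limma adjusted p = 1.55e-05), 0.06 below the median gene (0.02 to 0.42 below over the settings). Pds5a, at 3.17, 3.32 and 4.05 TPM in mitosis, stood at 5.52 and 3.92 at 60 min, where 1 library lay within the mitotic range, and at 6.85 and 7.60 at 90 min. Its rise at 60 min was 0.43 ± 0.13 (limma adjusted p = 0.00459), 0.36 below the median gene (0.29 to 0.78), and it did not pass without replicate 1 (0.24, limma adjusted p = 0.227). Pds5b, at 1.57, 1.40 and 1.97 TPM in mitosis, stood at 3.54 and 2.09 at 60 min and at 3.93 and 5.14 at 90 min, and its rise at 60 min was 0.62 ± 0.12 (limma adjusted p = 4.94e-05), 0.17 below the median gene (0.08 to 0.43). The ratio of Pds5a to Pds5b was 2.15 ± 0.20 (SD, n = 3) in mitosis, 1.72 ± 0.23 (n = 2) at 60 min and 1.61 ± 0.19 (n = 2) at 90 min.

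By 90 min all 10 members passed as higher than mitotic cells, and they did so at 120 min and in asynchronous cells too, where 89.1%, 90.2% and 70.4% of all genes were. At 20 and 30 min 0 members passed in limma, as did 0% and 0.303% of all genes (253 and 1135 genes at unadjusted p under 0.05), and the single 50 min library was not tested. These contrasts share the mitotic libraries. In none of them was a member called lower, against 0.0404%, 0.515%, 0.948% and 0.656% of genes at 40, 60, 90 and 120 min and 1.97% in asynchronous cells. In asynchronous cells Rad21 was 1.06 ± 0.11 above mitosis and 0.74 above the median gene of that contrast, and Ctcf was 0.64 ± 0.12 above (limma adjusted p = 7.92e-07 and 0.000114). Without replicate 3, the high asynchronous library, 4 members passed there (47% of genes). Against asynchronous cells, 4 members were higher at 60 min, where 67% of genes were: Smc3 (0.83 ± 0.12), Stag2 (0.62 ± 0.12), Smc1a (0.38 ± 0.13) and Wapl (0.37 ± 0.12). The median gene was 0.47 higher in that contrast, so Smc3 lay above it and Smc1a and Wapl below it. None was lower, where 8.6% of genes were. When all libraries were scaled to 1 total, 1 member was higher and 8 were lower (35% and 35.2% of genes), and divided by the library factor 1 was higher and 1 lower (42.1% and 15.3%). Without replicate 1 only Smc3 was higher (44.7% of genes). From 60 to 120 min, over which the median gene had a difference of −0.11, Stag1 rose by 0.51 ± 0.12 (limma adjusted p = 0.00315), more than 97.8% of genes, where 9.6% of genes rose. Smc3 fell by 0.46 (SE 0.13, limma adjusted p = 0.00954) over the same interval, where 28.5% of genes fell. Stag1 lost its call without replicate 2 (0.37, limma adjusted p = 0.124) and Smc3 without replicate 1 (−0.24, limma adjusted p = 0.409).

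**Figure D3:**
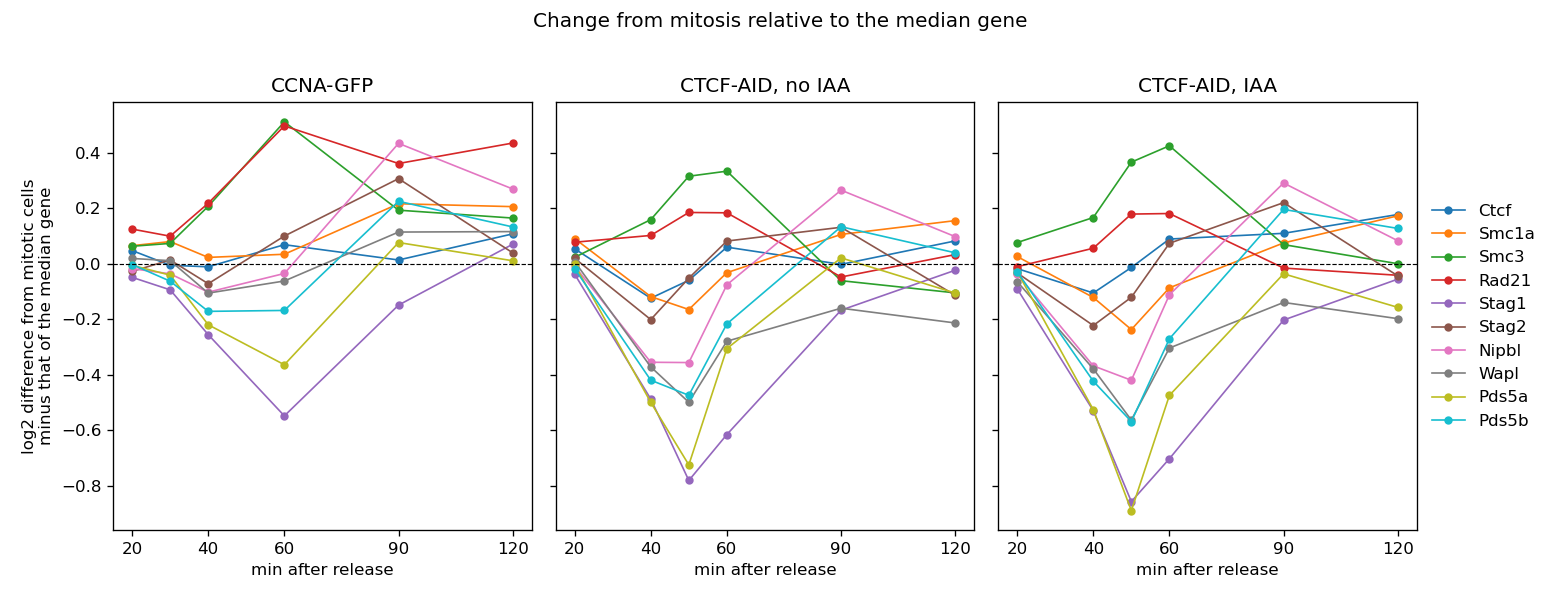
Log2 difference of each gene from mitotic cells minus that of the median gene, against min after release, in CCNA-GFP cells and in both arms of CTCF-AID cells. The dashed line at 0 is the median gene. At 60 min Smc3 was 0.33 to 0.51 above it and Stag1 0.55 to 0.70 below it in the 3 panels.

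Over the 10 members, longer genes had the smaller difference at 40 min. The Spearman correlation of annotated length with the log2 difference from mitosis at 40 min was −0.84 in CCNA-GFP cells, −0.78 in CTCF-AID −IAA cells and −0.82 in +IAA cells (n = 10 genes, which share their libraries). Over all 9885 CCNA-GFP genes with a matched length, 99.7% of those listed, it was −0.54. The median difference there was 0.38 for genes under 30 kb, 0.18 from 30 to 100 kb and 0.05 from 100 kb. From 60 to 120 min the sign was opposite, at 0.79, 0.64 and 0.71 over the members and at 0.28, 0.23 and 0.23 over all genes. At 90 min against mitosis, the correlation over members was −0.09, 0.27 and 0.15. Length did not order the members fully, since Pds5a, at 92.6 kb, had a smaller difference at 60 min than the longer Stag2, Pds5b and Nipbl in each arm. The genes are not independent replicates, and the bins were chosen as a description.

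**Figure D4:**
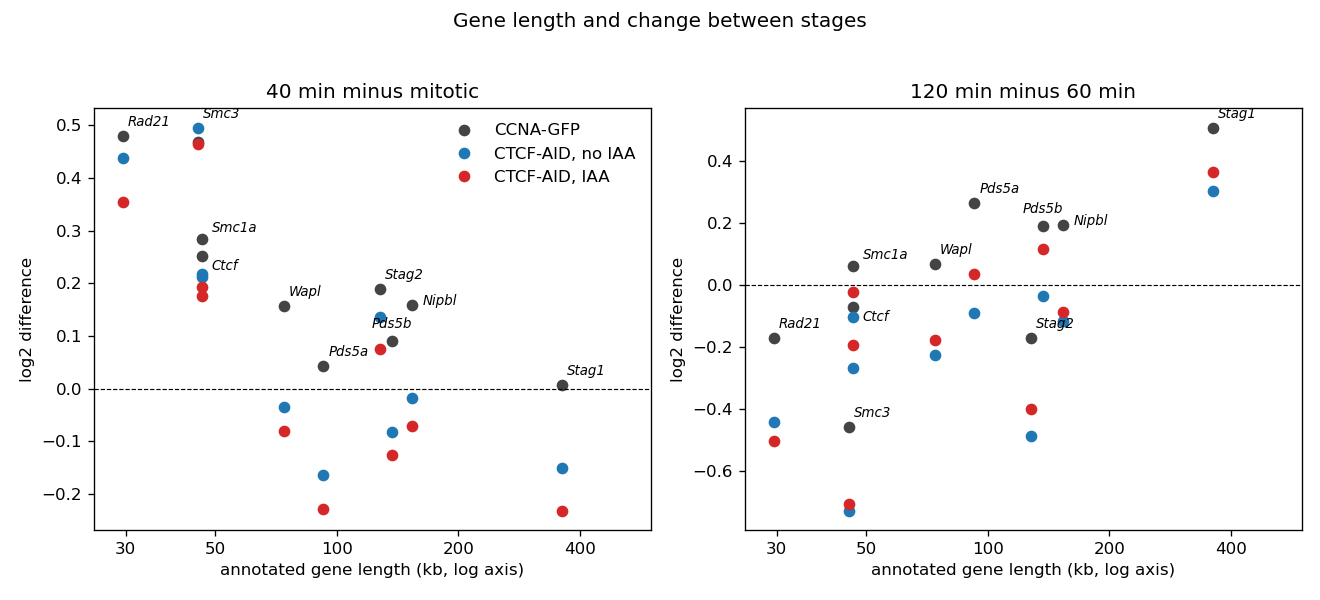
Annotated gene length (kb, log axis) against the log2 difference of the 10 genes at 40 min minus mitosis and at 120 min minus 60 min, with 1 point per gene and arm. Rad21 and Smc3, among the shortest, were highest at 40 min, and Stag1, the longest, was highest from 60 to 120 min.

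In CTCF-AID −IAA cells Smc3 was again the highest and Stag1 the lowest of the members at 60 min in their difference from mitosis. Smc3 stood at 2.87, 2.39 and 3.26 TPM in mitosis, 4.38 and 3.73 at 40 min, 6.11 and 7.15 at 50 min, 5.91 and 6.09 at 60 min, and 3.26 and 3.19 at 120 min. Stag1 stood at 2.11, 2.73 and 2.92 TPM in mitosis, 1.94 and 2.23 at 40 min, 2.14 and 2.13 at 50 min, 2.41 and 2.53 at 60 min, and 2.94 and 3.63 at 120 min. At 40 min 3 members passed (Smc3, 0.50 ± 0.09, Rad21, 0.44 ± 0.11, and Smc1a, 0.22 ± 0.09), where 63.3% of genes did and the median gene stood at 0.34, above Smc1a. The Smc1a call was lost when any 1 of the 3 replicates was left out. At 50 min 6 passed, where 79.1% of genes did, and Stag1, Wapl, Pds5a and Pds5b did not. At 60 min 9 passed (84.8% of genes), with Stag1 at 0.02 ± 0.10 (limma adjusted p = 0.864). All 10 passed at 90 min (74.8% of genes) and 8 at 120 min (69.6% of genes), without Wapl (0.13 ± 0.10) and Pds5a (0.24 ± 0.12). Without replicate 3, 4 passed at 90 min (50.4% of genes), and without replicate 2, 4 passed at 120 min (50.8% of genes). From 60 to 120 min Stag1 rose by 0.30 ± 0.11 (7.31% of genes rose), while Smc3 fell by 0.73, Stag2 by 0.49 and Rad21 by 0.44 (53.1% of genes fell, with the median gene at −0.27). In −IAA cells 0 members were called lower than in mitosis, where 3.21%, 4.56%, 2.7%, 3.37% and 3.15% of genes were at 40, 50, 60, 90 and 120 min. The Stag1 call was lost without replicate 2 here too (0.21, limma adjusted p = 0.261).

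In asynchronous against mitotic CTCF-AID cells the count depended on the library factor. On the deposited scale Rad21 alone passed −IAA, at 0.42 ± 0.10 (limma adjusted p = 0.00179), where 34.3% of genes did, and 0 members (17.3% of genes) passed there without replicate 3. Divided by the factor, which was 1.84 to 2.17 in asynchronous and 2.13 to 2.59 in mitotic libraries of both arms, 8 members (66% of genes) passed. Ctcf held 6.54, 6.10 and 9.13 TPM in asynchronous and 5.74, 6.15 and 6.78 in mitotic −IAA cells, with overlap (0.18 ± 0.10, limma adjusted p = 0.144). At 60 min, 9 members were above asynchronous cells, where 75.2% of genes were, with Stag1 the exception at 0.02 ± 0.10. Divided by the factor 5 were (62.7% of genes), and when all libraries were scaled to 1 total, 1 was higher and 7 were lower (37.5% and 32.9% of genes).

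The second question was whether any of these genes responds when CTCF protein is removed. In +IAA cells the time course was close to that of −IAA cells. Members above mitosis numbered 2 at 40 min (58.7% of genes), 6 at 50 min (78.2%) and 8 at 60 min (82.2%). They then numbered 9 after 90 min (73.8%), 8 after 120 min (68.2%) and 3 in asynchronous cells (40.9%). Without replicate 2, 1 passed at 120 min (41.5% of genes), and without replicate 3, 1 passed in asynchronous cells (26.9% of genes), where 9 did (67.1% of genes) with values divided by the library factor. Members called lower were Pds5a (−0.27 ± 0.12, limma adjusted p = 0.036) and Stag1 (−0.24 ± 0.10, limma adjusted p = 0.0361) at 50 min, where 5.37% of genes were lower. Without replicate 3 neither passed. Pds5a stood at 4.71, 4.12 and 4.95 TPM in mitotic and at 3.60 and 3.81 at 50 min in +IAA cells, and at 4.28, 4.42 and 5.13 and then 4.45 and 4.00 in −IAA cells. Stag1 was also below asynchronous cells at 60 min (−0.23 ± 0.10, limma adjusted p = 0.0413, 8.24% of genes lower), where 7 members were higher (72.2% of genes; 2 and 57.2% when divided by the factor), and the Stag1 call was lost when any 1 of the 3 replicates was left out. From 60 to 120 min Stag1 rose by 0.36 ± 0.11 (7.61% of genes rose), and Smc3 fell by 0.71, Rad21 by 0.50 and Stag2 by 0.40 (50.8% of genes fell, with the median gene at −0.25). Without replicate 2 Stag1 did not pass (0.16, limma adjusted p = 0.38), nor did Stag2 without replicate 1 (−0.18, limma adjusted p = 0.127). In the arm-by-arm contrasts 0 of the 10 members passed at any stage, in the mean over the 6 times after release, or in the difference of that mean from asynchronous cells (limma, adjusted p under 0.1 and, except for the last, a log2 difference over 0.2). Genes called higher and lower made up 0.313% and 0.694% of all genes in asynchronous cells and 0.371% and 1.35% in the mean over times (286 and 457 at unadjusted p under 0.05, with 0 members among them). In the mitotic, 20 and 40 min contrasts 0% of genes passed (23, 31 and 85 at unadjusted p under 0.05). Those higher and lower were 0.0879% and 0.195% at 50 min, 0.0586% and 0.166% at 60 min, 0.176% and 0.557% at 90 min and 0.127% and 0.459% at 120 min, and 0.00977% and 0% for the difference from asynchronous cells. With the replicate numbers as a block, 0 members passed as well, and the all-gene calls in asynchronous cells went from 32 higher and 71 lower to 92 and 157. Without replicate 1, 0 genes passed there.

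Ctcf had the most one-sided values of the 10. Its asynchronous libraries held 6.54, 6.10 and 9.13 TPM −IAA and 7.52, 7.77 and 10.9 TPM +IAA, so each +IAA library was above its −IAA partner of the same number although the groups overlapped. The mitotic libraries held 5.74, 6.15 and 6.78 against 6.41, 6.10 and 7.18, also with overlap. At 50 min the values were 9.41 and 10.1 −IAA against 10.1 and 11.5 +IAA, at 60 min 9.69 and 10.1 against 10.4 and 10.9, and at 120 min 7.30 and 8.89 against 7.80 and 10.8. At 40, 50 and 60 min both +IAA libraries were above both −IAA ones, as they were for 2.4%, 12.9% and 7.56% of all genes. Over all stages Ctcf was higher +IAA in 16 of 18 pairs of libraries, and 0.957% of genes were higher in as many or more, with a median of 8. The log2 difference was 0.24 in asynchronous cells (95% interval −0.07 to 0.55, unadjusted p = 0.13 by limma) and 0.10 over the 6 times after release (−0.06 to 0.25, unadjusted p = 0.212 by limma), higher than 98.3% and 97.8% of genes. With the replicate block the estimates were the same and the intervals narrower, at 0.04 to 0.44 in asynchronous cells (unadjusted p = 0.0209 by limma) and −0.00 to 0.20 after release (unadjusted p = 0.0547 by limma), with limma adjusted p of 0.499 and 0.493. Over the settings tried, the difference lay between 0.20 and 0.28 in asynchronous cells and between 0.07 and 0.15 after release, and it did not pass in any of them.

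All 9 cohesin genes were lower +IAA in both pairs at 20 and at 40 min, as were 57.6% and 53.2% of all genes, and the median gene stood at −0.06 and −0.05 there. With no overlap between the arms, 3 of them were below at 20 min (Smc1a, Nipbl and Pds5b; 13.9% of genes), 3 at 40 min (Smc1a, Nipbl and Pds5a), 2 at 50 min (Stag2 and Pds5a) and 1 at 60 min (Pds5a). Stag1 in asynchronous cells was at 2.29, 2.32 and 3.13 TPM −IAA and 2.85, 3.18 and 3.49 +IAA, a log2 difference of 0.23, close to that of Ctcf and above it with a pseudocount of 0.1 (0.30 against 0.26). Its interval was −0.06 to 0.51 (0.04 to 0.41 with the replicate block, limma adjusted p = 0.478), and after release the difference was −0.00 (−0.15 to 0.14). Pds5b was 0.16 and Stag2 0.13 higher in asynchronous +IAA cells, with intervals that included 0 in the fit without the replicate block. Pds5a went the other way after release, at 5.82 and 5.65 TPM −IAA against 4.52 and 5.47 +IAA at 60 min, and 11 of its 12 pairs after release were lower +IAA, where 9.69% of genes were lower in as many or more. Nipbl was lower in 9 of the 12 (31.1% of genes). The mean difference of Pds5a after release was −0.09 (−0.23 to 0.04, without the replicate block). At 40, 50 and 60 min the +IAA libraries of Pds5a were both below its −IAA ones, as in 14.5%, 11.2% and 14.4% of genes. The ring genes Smc1a, Smc3 and Rad21 and the loader Nipbl lay between −0.03 and 0.03 in asynchronous cells and between −0.07 and −0.00 after release, and the signs of Smc3 and Rad21 turned with the scaling. The upper ends of the 95% intervals after release, each for 1 gene taken singly, were 0.25 for Ctcf and at most 0.16 for the cohesin members without the replicate block, and 0.20 and at most 0.09 with it.

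**Figure D5:**
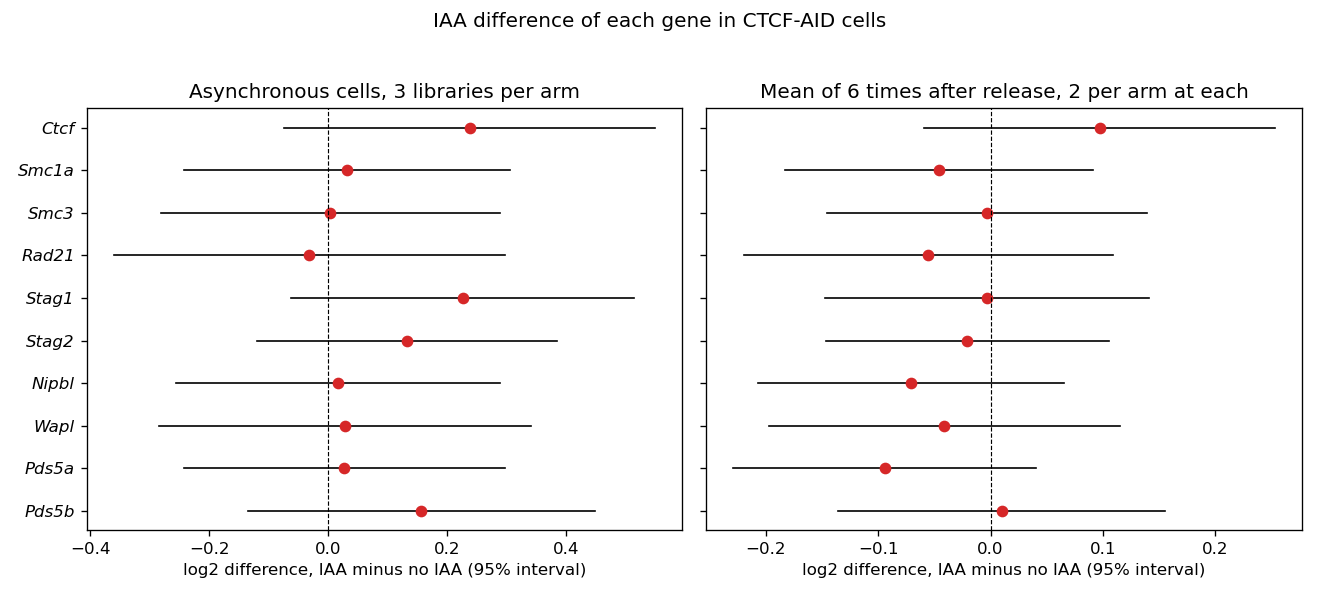
Log2 difference of each gene, +IAA minus −IAA, in asynchronous CTCF-AID cells and as the mean over the 6 times after release. Points are limma estimates and bars 95% intervals, without the replicate block. All bars included 0. Ctcf and Stag1 were highest in asynchronous cells and Ctcf was highest after release.

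Ctcf levels also differed between the lines. In mitosis Ctcf stood at 6.22 TPM on average in CTCF-AID −IAA cells and at 2.99 in CCNA-GFP cells, a ratio of 2.08, where the median over genes listed in both lines of the same ratio was 1.38. The ratio was 1.70 at 60 min, against a median over genes of 1.07, and 1.36 in asynchronous cells, against 1.02. In all mitotic and released stages set side by side the CTCF-AID −IAA libraries lay above the CCNA-GFP ones for Ctcf, as for 9.95% of 9574 shared genes and no other member, while asynchronous libraries overlapped. In mitosis alone 7 members and 46% of genes lay above, so that part is not particular to Ctcf. For the other members the mitotic ratio was at most 1.59 (Stag2), below that of Ctcf. The lines come from tables made separately, with different replicates and processing factors, and the difference was not tested. The engineered Ctcf gene and the line cannot be told apart here.

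Pathway genes outside the 10 were also read. Of 28 genes for loading, acetylation, cohesion, protection, cleavage, germline subunits and factors at CTCF sites, 20 were listed in CCNA-GFP cells and 22 in CTCF-AID cells. At 60 min 18 of the 20 were above mitosis in CCNA-GFP cells (88.3% of all genes) and 0 below; Smc1b and Chtf8 (0.93 ± 0.71, with mitotic libraries from 0 to 4.62 TPM) did not pass. The highest were Esco2, which acetylates SMC3 in S phase (1.75 ± 0.13), Dscc1, a subunit of the clamp loader used in cohesion (1.49 ± 0.11), and Ldb1, a looping factor (1.40 ± 0.15). Smc1b, the germline counterpart of Smc1a, had 0.07 ± 0.10, and the next lowest were the chromatin remodeller Chd8 (0.80 ± 0.10) and Adnp, a factor that competes with CTCF at some sites (0.84 ± 0.15). With IAA, 0 of the 22 passed in the mean over times after release (limma). The pattern most like that of Ctcf over the 25 groups of both lines, by Pearson correlation of group mean log2(TPM + 1) centred within each line and arm among 6603 genes, was that of Uchl3 (0.98), Clcn3 (0.98) and Far1 (0.98). Among the members the correlation with Ctcf was 0.94 for Smc1a and Rad21, 0.91 for Stag2, 0.88 for Smc3, 0.86 for Nipbl, 0.85 for Wapl, 0.80 for Pds5b, 0.63 for Pds5a and 0.48 for Stag1. Of the 6603 genes, 5.35% were more like Ctcf than Smc1a, 5.57% more than Rad21, 17.7% more than Stag2 and 30.2% more than Smc3, while for the other members the share was 36.2% to 91.1%. The scale of the libraries moves all genes of a group together.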

How the data were processed

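Libraries were ribo-depleted, stranded and paired-end. The authors aligned reads with STAR to mm10 and quantified them with RSEM on an annotation in which each gene also had a pre-mRNA isoform. The deposited values are TPM of that isoform for genes reaching 0.5 TPM, and were whole multiples (within 0.02 of a step, checked below 200 steps) of 0.01 TPM times a factor per library (1.84 to 3.81) whose origin is not given in the sources used here. Counts were not used here, so count models were not fitted and depth is unknown. The garbled headers of the asynchronous CTCF-AID columns were read against the column names of the study's supplementary data. In limma 3.58.1 (R 4.3.3, eBayes with trend), log2(TPM + 1) was fitted over all listed genes of a table, with Benjamini-Hochberg adjustment within each comparison. Stage contrasts had the replicate number as a block (adjusted p under 0.05). IAA contrasts had none (adjusted p under 0.1 and a log2 difference over 0.2). Same-numbered libraries deviated together in all 88 pairs of CTCF-AID groups (median correlation of deviations 0.52) and all 20 of CCNA-GFP. On simulated CCNA-GFP data for 60 min against mitosis (9911 genes), 26% of genes changed by 0.5 and 86% of those changed by 1 (log2) were called. For IAA in asynchronous cells (10237 genes) 56% and 95% were. Only 100 genes were changed by each amount, all others had the same mean at every stage, and replicate effects were drawn for each gene separately. In the real data 88.3% of genes were called at 60 min, so the simulated rates for 60 min cannot be carried over to that contrast. All 10 members were named. Pathway genes were named by the 3 highest and 3 lowest differences at 60 min in CCNA-GFP cells or by an IAA call, and genes like Ctcf by the 3 highest correlations. The members and lists were chosen with earlier results of these data known. Alternatives were another pseudocount (0.1), a mean of at least 1 TPM, 2 rescalings, the block switched and each replicate left out.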

Additional observations from a re-analysis of the deposited data

Results flagged for a closer look

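These values were picked out because every same-numbered pair of libraries moved one way in one group and the opposite way in the other. Among 60 comparisons of the 10 members between the lines 3 did so (4.2% of such comparisons over all genes), and among 70 comparisons of the IAA difference between asynchronous cells and mitotic or released cells 7 did (6.78% over all genes). Except for the mean IAA difference after release against asynchronous cells, in which 0 members passed (limma), the difference between the groups was not tested.

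Wapl was 0.36 higher (log2) in asynchronous than in mitotic CCNA-GFP cells, while the value in CTCF-AID −IAA cells was −0.12. At 40 min Wapl had 0.16 against −0.035 in these lines, and Pds5b had 0.090 against −0.083. With every library scaled to the same total, the asynchronous Wapl value in CCNA-GFP cells was −0.12, and the 40 min values in CCNA-GFP cells were −0.34 for Wapl and −0.33 for Pds5b, negative as in CTCF-AID −IAA cells (−0.56 for both).

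With IAA, Stag1 had a log2 difference of 0.23 in asynchronous cells, against −0.040 at 20 min and −0.022 at 40 min. Stag2 had 0.13 in asynchronous cells, against −0.11 at 20 min, −0.075 at 40 min and −0.065 at 50 min. Pds5b had 0.16 in asynchronous cells, against −0.038 at 20 min and −0.023 at 40 min. The median gene stood at 0.012, −0.061, −0.048 and 0.0031 in asynchronous cells and at 20, 40 and 50 min, so Stag1 and Pds5b were above it at 20 and 40 min although negative. The differences of Stag1, Stag2 and Pds5b between the mean after release and asynchronous cells were −0.23, −0.15 and −0.15, and none passed in limma.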

How the results depend on the processing

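Counts are members called higher and lower, to be read beside the shares of all genes called. For 120 against 60 min, 24.4% to 26.6% of genes were higher and 21.7% to 27.2% lower with the same total. Divided by the factor these shares were 3.92% to 7.41% and 13.9% to 58.9%. With no block they were 1.79% to 2.78% and 12.1% to 33.2%. For 60 min against asynchronous, 35% to 37.5% were higher and 32.9% to 35.2% lower with the same total. Divided by the factor 42.1% to 62.7% were higher, and with no block 52.8% to 62.3%. With the same total, 23.7% to 41% of genes were higher and 20.3% to 38.6% lower than in mitosis (from 40 min on and in asynchronous cells); divided by the factor, 59% to 89.3% were higher; with no block, 11.6% to 85.3%; without 1 replicate, 17.3% to 89%. With every library scaled to the same total, CCNA-GFP counts against mitosis were 0 and 6 at 40 min, 2 and 6 at 60 min, 2 and 4 at 90 min, 1 and 2 at 120 min, and 2 and 0 in asynchronous cells; 60 min against asynchronous gave 1 and 8, and 120 against 60 min gave 6 and 1. In −IAA cells they were 0 and 8 at 40, 1 and 7 at 50, 1 and 6 at 60, 1 and 5 at 90, 0 and 3 at 120 min, 1 and 3 in asynchronous cells, 1 and 7 for 60 min against asynchronous, and 5 and 1 for 120 against 60 min. In +IAA cells they were 0 and 9, 1 and 7, 1 and 7, 1 and 3, 0 and 5, 2 and 2, 1 and 8, and 7 and 2. Under this scaling the log2 differences at 60 min turned to −0.25 for Ctcf, −0.15 for Smc1a, −0.69 for Stag1, −0.22 for Nipbl, −0.38 for Wapl, −0.68 for Pds5a and −0.31 for Pds5b in CCNA-GFP cells. In −IAA cells they turned to −0.18, −0.13, −0.69, −0.19, −0.46, −0.50 and −0.32 for these genes and −0.0046 for Rad21. In +IAA cells they turned to −0.17 for Ctcf, −0.18 for Smc1a, −0.012 for Rad21, −0.0082 for Stag2, −0.22 for Nipbl, −0.49 for Wapl, −0.67 for Pds5a and −0.38 for Pds5b. In asynchronous CCNA-GFP cells they turned to −0.085 for Stag1, −0.077 for Stag2, −0.12 for Wapl, −0.064 for Pds5a and −0.040 for Pds5b, and at 40 min to −0.084 (−IAA) and −0.14 (+IAA) for Rad21. The IAA difference turned to −0.0017 for Smc3 in asynchronous cells and to 0.026, 0.023 and 0.0041 for Smc3, Stag1 and Stag2 after release. Divided by the library factor, 5 passed at 40 min in CCNA-GFP cells, 1 and 1 for 60 min against asynchronous and 0 lower for 120 against 60 min; in −IAA cells 8 passed in asynchronous cells, 5 for 60 min against asynchronous, and 0 and 5 for 120 against 60 min; in +IAA cells 9 and 2 passed in the first and second of these. The IAA difference then turned to 0.0014 for Rad21 in asynchronous cells and to 0.040, 0.036, 0.018 and 0.0031 for Smc3, Stag1, Stag2 and Wapl after release. With no replicate block, CCNA-GFP cells had 0 at 40 min, 2 for 60 min against asynchronous and 0 lower for 120 against 60 min; −IAA cells had 1 at 40 min, 1 at 120 min, 0 in asynchronous cells, 4 for 60 min against asynchronous, 0 higher for 120 against 60 min, and Stag1 at −0.042 at 60 min; +IAA cells had 0, 2 and 0 higher, 0 lower at 50 min, 2 and 0 for 60 min against asynchronous, and 0 higher for 120 against 60 min. With the replicate block the 20 IAA counts kept their call. A pseudocount of 0.1 gave 1 lower at 40 min +IAA, and the 1 TPM minimum changed no count. Leaving out 1 replicate gave, in CCNA-GFP cells, 0 to 2 at 40 min, 4 to 10 in asynchronous cells, 1 to 6 for 60 min against asynchronous and 0 to 1 higher and 0 to 1 lower for 120 against 60 min. It gave, −IAA, 4 to 9 at 90 min, 4 to 9 at 120 min, 0 to 1 in asynchronous cells, 0 to 2 lower at 50 min and 0 to 1 higher for 120 against 60 min. It gave, +IAA, 1 to 10 at 120 min, 1 to 4 in asynchronous cells, 0 to 2 lower at 50 min, 0 lower for 60 min against asynchronous and 0 to 1 higher for 120 against 60 min. Over these runs 2.24% to 8.47% of genes were higher and 6.37% to 51.7% lower for 120 against 60 min. For 60 min against asynchronous the shares were 44.7% to 74.8% and 5.19% to 7.48%. Stag1 at 60 min ranged from −0.040 to 0.086 (−IAA) and −0.12 to 0.022 (+IAA). The IAA difference ranged in asynchronous cells from −0.00740 to 0.024 for Smc3, −0.014 to 0.061 for Nipbl and −0.00633 to 0.087 for Wapl. After release it ranged from −0.090 to 0.0043 for Smc1a, −0.033 to 0.017 for Smc3, −0.046 to 0.054 for Stag1, −0.063 to 0.028 for Stag2, −0.082 to 0.0080 for Wapl and −0.030 to 0.053 for Pds5b. The cause of these changes was not tested. The depth is unknown.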
